A study of Mus musculus with 10 samples.

Results

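The genes described here handle adenosine, and they were followed around Adk, whose transcript was strongly lower with Compound 10 in resting T cells. They are 7 of the 45321 genes with a transcript in the tables, chosen by the fall of Adk with Compound 10 in unstimulated cells: Adk, Ada, Adora2a, Nt5e, Entpd1, Dck and Slc29a1. The values of that comparison are therefore given as a description, and all 7 genes passed the filter on low counts. The cells were naive CD4 T cells sorted as CD4+CD62L+CD69- cells from spleens of C57BL/6 mice. The groups were cells given 12.5 µM Compound 10 for 1 h and then PMA (10 nM) plus ionomycin (1 µM) for 2 h (n = 3), vehicle cells (DMSO) stimulated the same way (n = 2), cells given Compound 10 and left unstimulated (n = 2), and unstimulated vehicle cells (n = 3). PMA, a protein kinase C activator, and ionomycin, a calcium ionophore, bypass the T cell receptor, and the series describes Compound 10 as a chemical inhibitor of the NFAT:AP-1 transcription factor complex. Nothing in the labels ties the libraries of a group to different mice or cultures, so the p-values may reflect technical spread alone.

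Adenosine is made outside cells from ATP by the ectonucleotidase CD39, the product of Entpd1, which yields AMP, and by CD73, the product of Nt5e, which releases adenosine from AMP. It acts on T cells largely through the receptor encoded by Adora2a, which raises cyclic AMP and restrains activation. Slc29a1 encodes the equilibrative transporter ENT1, which carries nucleosides across the membrane in either direction. Inside the cell, adenosine kinase (Adk) phosphorylates adenosine to AMP and adenosine deaminase (Ada) converts adenosine and deoxyadenosine to inosine and deoxyinosine. Deoxycytidine kinase (Dck) phosphorylates deoxynucleosides, deoxyadenosine among them. Loss of ADA in humans causes a severe immunodeficiency of lymphocytes.

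The libraries held 10694591 to 33486259 estimated counts, and 14417 genes were tested. The summed level of 10 T cell identity genes was 2581 to 2992 CPM (counts scaled to the library total) in stimulated Compound 10 libraries and 2817 to 3143 CPM in stimulated vehicle libraries. It was 2554 to 3028 CPM in unstimulated Compound 10 libraries and 2191 to 2322 CPM in unstimulated vehicle libraries. The 11 memory or effector markers summed to 201 to 245, 251 to 288, 195 to 206 and 116 to 136 CPM in these 4 groups in the same order, so that the Compound 10 libraries stood below vehicle in stimulated and above vehicle in unstimulated cells. The 9 myeloid markers summed to 1.90 to 4.29, 4.23 to 6.61, 9.98 to 11.7 and 17.5 to 32.0 CPM, with S100a9 at 0. The 8 B cell markers summed to 43.2 to 65.4, 34.8 to 51.4, 55.6 to 70.5 and 31.9 to 56.8 CPM. The 7 regulatory T cell markers with a row, of 8 listed, summed to 87.6 to 93.0, 70.8 to 81.8, 90.8 to 114 and 93.0 to 102 CPM. The 7 CD8 T cell and NK cell markers, with Ncr1 and Klra8 at 0, summed to 6.31 to 8.66 CPM with Compound 10 and 11.2 to 14.9 CPM with vehicle in stimulated cells, and overlapped in unstimulated cells (lowest sums 5.90 and 8.18 CPM). The part of these marker differences in the results on adenosine genes was not tested. In bulk RNA, fewer cells of a type and less RNA per cell cannot be told apart.

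Adk lies on chromosome 14 (21052574 to 21448569, plus strand, mm10). In resting cells Adk stood at 27.8 and 32.1 CPM (scaled with TMM factors, as are all CPM below) with Compound 10, against 211, 172 and 214 CPM with vehicle. These groups were far apart, with each vehicle library more than 5 times the higher of the Compound 10 libraries. The fitted log2 fold change was -2.73 ± 0.18 (SE), 6.63-fold lower, which was the 94th largest fall among the 14417 genes. The values behind it were counts of 436 and 1278 with Compound 10 and 3860, 3682 and 7453 with vehicle, so depth did not limit them.

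The rule that chose the genes used the resting comparison and not the stimulated libraries, although earlier results of these data were known by then. In stimulated cells Adk was also lower with the compound. It stood at 53.5, 51.9 and 60.2 CPM in stimulated Compound 10 cells, against 175 and 155 CPM in stimulated vehicle cells. The Compound 10 libraries lay close together and below both vehicle libraries. The difference was -1.58 ± 0.16 on the log2 scale, 2.99-fold lower (adjusted p = 8.79e-05, edgeR's quasi-likelihood F test, Benjamini-Hochberg adjusted over all genes). Adk had 1 matched transcript, Adk-201 of 1781 bases, so all reads assigned to Adk went to it. Its counts were whole in every library within 0.001. RefSeq also has an Adk start 23578 bases further on, and the forms were not separated here.

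**Figure D1:**
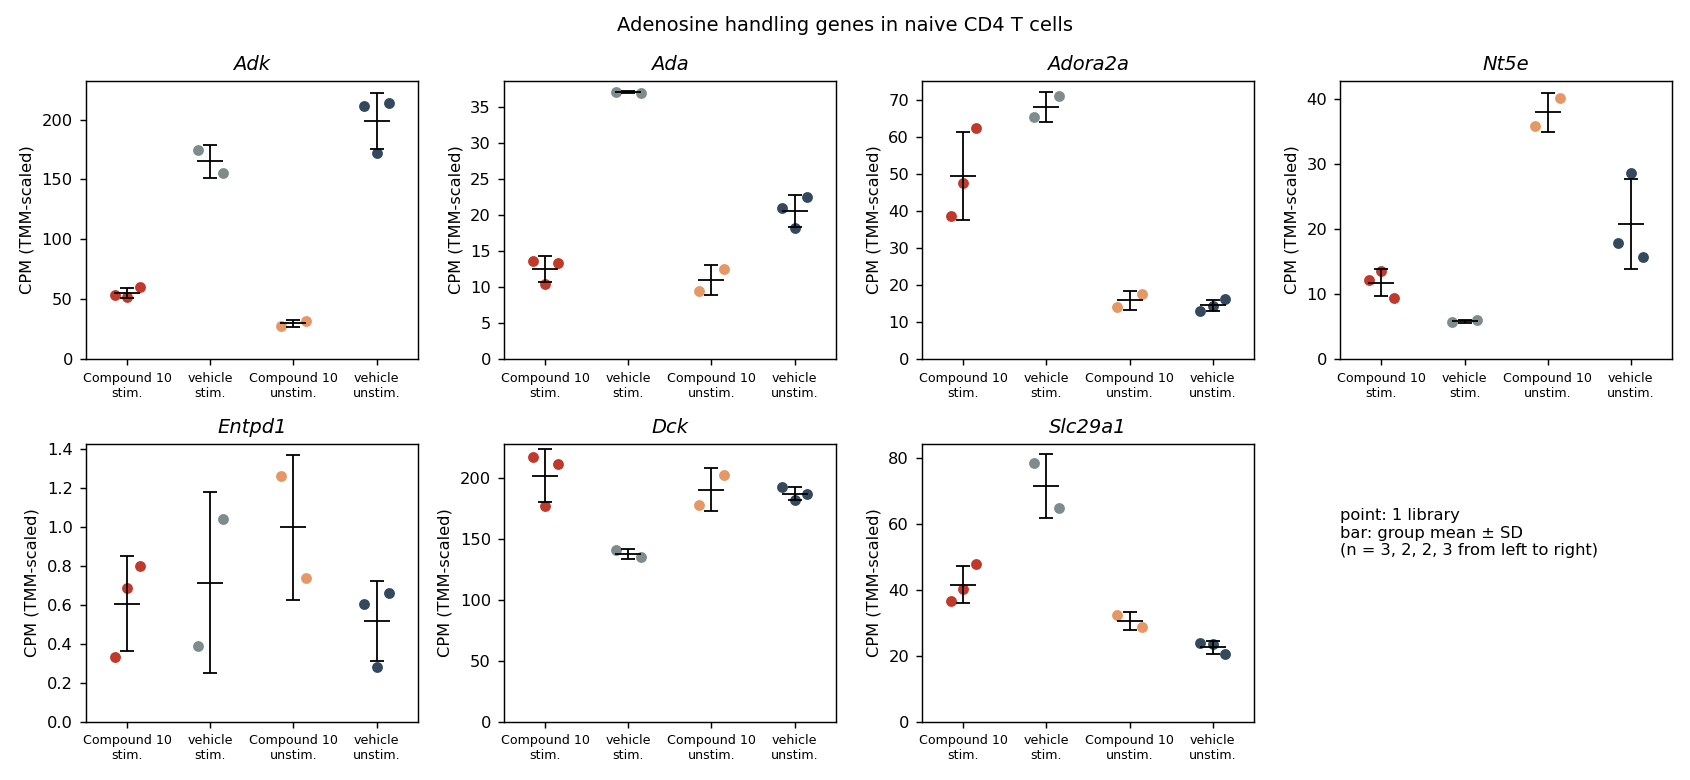
Level of each adenosine handling gene in CPM (y axes, starting at 0) by group, with 1 point per library and bars for the mean ± SD. Adk and Ada are lower in the Compound 10 groups than in the vehicle groups of the same state, Nt5e is higher, and Entpd1 stays at or below 1.26 CPM.

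Ada, the other enzyme that removes adenosine inside the cell, lies on chromosome 2 (163726584 to 163750239, minus strand). In stimulated cells it stood at 13.7, 10.5 and 13.4 CPM with Compound 10, against 37.2 and 37.0 CPM with vehicle. The groups did not overlap, and Ada fell by about the same factor as Adk (-1.57 ± 0.20, 2.96-fold lower; adjusted p = 0.000306, edgeR quasi-likelihood). In resting cells it stood at 9.52 and 12.5 CPM with Compound 10, against 20.98, 18.2 and 22.5 CPM with vehicle, a log2 fold change of -0.90 ± 0.20. That resting difference is a description, since the comparison chose the set.

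Adk and Ada were read against Dck, the deoxynucleoside kinase, within each library on the per-length TPM scale, where the total of a library cancels. The ratio of Adk to Dck was 0.445, 0.531 and 0.515 in stimulated Compound 10 cells, against 2.25 and 2.10 in stimulated vehicle cells. In unstimulated cells the ratio was 0.280 and 0.286 with Compound 10, against 1.96, 1.71 and 2.07 with vehicle. Dck thus stood above Adk in the 3 stimulated Compound 10 libraries, and Adk above Dck in the 2 stimulated vehicle libraries. The unstimulated libraries divided the same way by treatment. That is a description, since the fall of Adk in those libraries chose the set. The ratio of Ada to Dck averaged 0.119 ± 0.00467 with Compound 10 and 0.532 ± 0.000165 with vehicle in stimulated cells, and 0.110 ± 0.0116 and 0.210 ± 0.0193 in unstimulated cells (SD). The ratio of Adk to Ada averaged 4.19 ± 0.501 with Compound 10 and 4.09 ± 0.195 with vehicle in stimulated cells, so the pair kept nearly the same proportion there. In unstimulated cells it averaged 2.59 ± 0.233 with Compound 10 and 9.10 ± 0.335 with vehicle.

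Dck itself (chromosome 5, 88764996 to 88783281, plus strand) stood at 217, 177 and 212 CPM in stimulated Compound 10 cells, against 141 and 135 CPM in stimulated vehicle cells. It rose with the compound there (0.55 ± 0.15, 1.47-fold; adjusted p = 0.0173, edgeR quasi-likelihood). Resting cells held 178 and 203 CPM with Compound 10 and 193, 182 and 187 CPM with vehicle, which overlap (0.02 ± 0.14). The stimulated call was lost without the first or second vehicle library (adjusted p = 0.103 and 0.131) or the first Compound 10 library (0.0578), with estimates of 0.59, 0.53 and 0.50.

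Slc29a1, the nucleoside transporter gene (chromosome 17, 45585200 to 45599606, minus strand), stood at 36.7, 40.1 and 47.7 CPM in stimulated Compound 10 cells, against 78.4 and 64.7 CPM in stimulated vehicle cells. It fell with the compound (-0.78 ± 0.18, 1.72-fold lower; adjusted p = 0.00757, edgeR quasi-likelihood), a call lost without the first stimulated vehicle library (-0.64, adjusted p = 0.106). In resting cells it stood at 32.4 and 28.6 CPM with Compound 10, against 23.8, 23.5 and 20.4 CPM with vehicle. The Compound 10 libraries were the higher ones there (0.43 ± 0.18), given as a description. On the TPM scale Slc29a1 overlapped between the resting groups (25.6 to 33.9 with Compound 10, 21.7 to 27.8 with vehicle). Its reads were spread over 18 of 25 matched transcripts, with Slc29a1-202 holding 38.9% to 84.5% of the gene's counts, and an antisense gene, Gm17080, overlaps it with 0 to 8.2 counts. The kit did not mark strand, so its reads and those of Slc29a1 cannot be told apart.

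Nt5e, the gene of the enzyme CD73 that makes adenosine at the cell surface (chromosome 9, 88327197 to 88372092, plus strand), moved the other way. It stood at 12.2, 13.6 and 9.46 CPM in stimulated Compound 10 cells, against 5.67 and 5.98 CPM in stimulated vehicle cells (1.01 ± 0.29, 2.01-fold; adjusted p = 0.0274, edgeR quasi-likelihood). Resting cells held 35.8 and 40.1 CPM with Compound 10, against 17.8, 28.6 and 15.7 CPM with vehicle (0.88 ± 0.25). All Compound 10 libraries were above the vehicle libraries of their state. The stimulated call was kept without the third Compound 10 library, but not without the others, with adjusted p of 0.155 and 0.129 without the first and second vehicle library and of 0.0648 and 0.0835 without the first and second Compound 10 library. With length-scaled sums it was 0.0729, at 1.01.

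Entpd1, the gene of CD39 (chromosome 19, 40612366 to 40741602, plus strand), was near the detection limit, with 124 estimated counts in all 10 libraries together. It stood at 0.332, 0.686 and 0.796 CPM in stimulated Compound 10 cells and at 0.386 and 1.04 CPM in stimulated vehicle cells, groups that overlap (-0.26 ± 0.71; adjusted p = 0.838, edgeR quasi-likelihood). Resting cells held 1.26 and 0.735 CPM with Compound 10, against 0.603, 0.280 and 0.660 CPM with vehicle. A difference in Entpd1 was not detectable at this depth. A processed pseudogene within the locus, Gm8783, had 233.0 to 568.8 counts in a library. Whether it shares sequence with Entpd1 transcripts was not tested.

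Adora2a, the adenosine receptor gene (chromosome 10, 75316877 to 75334784, plus strand), stood at 38.7, 47.6 and 62.4 CPM in stimulated Compound 10 cells, against 65.4 and 71.1 CPM in stimulated vehicle cells. The Compound 10 libraries were all lower, but spread widely, and the difference was not called (-0.46 ± 0.21, 95% interval -0.92 to 0.00; adjusted p = 0.144, edgeR quasi-likelihood). It passed without the third Compound 10 library (-0.66, adjusted p = 0.0425, edgeR quasi-likelihood). With runs of the sample index or the replicate number as a block it also passed (-0.62 in each, 0.00883 and 0.0153). The other 15 of 18 alternatives left it uncalled, and over all 18 the estimates ran from -0.66 to -0.31. In resting cells Adora2a stood at 14.1 and 17.6 CPM with Compound 10 and at 13.1, 14.3 and 16.2 CPM with vehicle, values that overlap (0.13 ± 0.22).

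In all, 5 of the 7 genes were called for Compound 10 in stimulated cells, 2 higher (Nt5e, Dck) and 3 lower (Adk, Ada, Slc29a1), in a comparison in which 23.2% of all tested genes were called, 10.4% higher and 12.8% lower. Of the 7, 6 had no overlap between the groups, against 54.7% of all tested genes. The median log2 fold change was -0.46 over the members and 0.04 over all tested genes. These tallies include Adk, which was picked for its fall with the same compound in resting cells, so they are a description. Sample index numbers in the deposited names form runs, whose nature the labels do not state. Within the runs that hold both stimulated groups, 1 library a group, the differences of Compound 10 minus vehicle were -1.71 and -1.58 for Adk, -1.43 and -1.81 for Ada, -1.09 and -0.69 for Slc29a1, 1.09 and 1.17 for Nt5e, 0.62 and 0.39 for Dck, -0.76 and -0.58 for Adora2a and -0.17 and -0.53 for Entpd1 on the log2 scale.

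**Figure D2:**
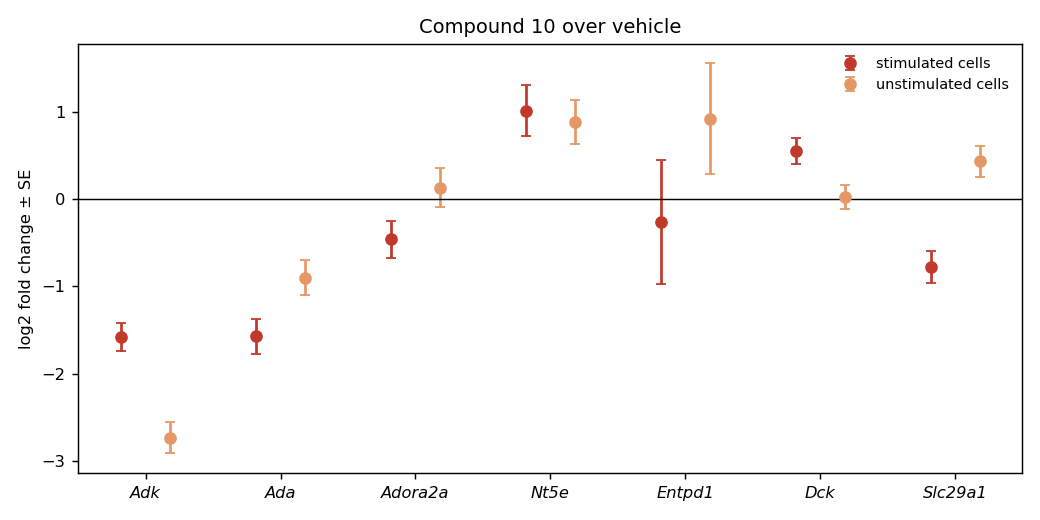
Log2 fold change of Compound 10 over vehicle (y axis, ± SE) for each gene in stimulated and in unstimulated cells. Adk and Ada lie below 0 in both states and Nt5e above 0, while Slc29a1 lies at -0.78 in stimulated and 0.43 in unstimulated cells.

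The size of the compound's effect differed by state for some members, and these differences are a description because they contain the resting comparison. The log2 effect in stimulated cells minus that in unstimulated cells was 1.15 ± 0.23 for Adk, whose fall was smaller in stimulated cells. For Slc29a1, whose estimates had opposite signs, it was -1.22 ± 0.25. It was -0.67 ± 0.28 for Ada, -0.59 ± 0.30 for Adora2a, 0.53 ± 0.20 for Dck, 0.13 ± 0.39 for Nt5e and -1.18 ± 0.95 for Entpd1.

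Stimulation itself moved most of the set in vehicle cells. Adora2a rose to 68.2 ± 3.99 CPM in stimulated vehicle cells, against 14.5 ± 1.57 CPM in unstimulated vehicle cells (SD; 2.23 ± 0.21, 4.69-fold; adjusted p = 1.22e-05, edgeR quasi-likelihood). Slc29a1 rose to 71.5 ± 9.64 CPM, against 22.6 ± 1.87 CPM (1.66 ± 0.18, 3.17-fold; adjusted p = 2.53e-05, edgeR quasi-likelihood), and Ada to 37.1 ± 0.180 CPM, against 20.6 ± 2.15 CPM (0.85 ± 0.20, 1.80-fold; adjusted p = 0.00495). Nt5e fell to 5.82 ± 0.221 CPM, against 20.7 ± 6.95 CPM (-1.82 ± 0.29, 3.54-fold lower; adjusted p = 0.000508, edgeR quasi-likelihood). Dck fell to 138 ± 4.47 CPM, against 187 ± 5.83 CPM (-0.44 ± 0.14; adjusted p = 0.0306, edgeR quasi-likelihood), a call lost without either stimulated vehicle library (0.117 and 0.155) and without the first or second unstimulated one (0.0755 and 0.0529). Entpd1 was not called (0.50 ± 0.68; adjusted p = 0.603, edgeR quasi-likelihood). Of the 6 genes other than Adk 5 were called, where 39.0% of all tested genes were (19.5% higher, 19.4% lower).

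With Compound 10, 2 of these 6 were called for stimulation, where 26.5% of all tested genes were (12.8% higher, 13.7% lower). Adora2a rose to a mean of 49.6 CPM in stimulated Compound 10 cells (38.7 to 62.4 CPM), against 15.8 CPM in unstimulated ones (14.1 and 17.6 CPM; 1.64 ± 0.23; adjusted p = 0.000381, edgeR quasi-likelihood), and Nt5e fell to 11.8 ± 2.12 CPM, against 38.0 ± 3.03 CPM (-1.69 ± 0.26; adjusted p = 0.000751). Slc29a1 stood at 41.5 ± 5.60 CPM in stimulated and 30.5 ± 2.69 CPM in unstimulated Compound 10 cells (0.44 ± 0.18; adjusted p = 0.0931, edgeR quasi-likelihood), and it passed with upper-quartile scaling (0.53, 0.0463) and with length-scaled sums (0.50, 0.0336). Ada stood at 12.5 ± 1.81 CPM in stimulated and 11.0 ± 2.08 CPM in unstimulated Compound 10 cells (0.18 ± 0.20; adjusted p = 0.570, edgeR quasi-likelihood). Dck differed by 0.09 ± 0.14 (adjusted p = 0.707, edgeR quasi-likelihood) and Entpd1 by -0.68 ± 0.66 (0.501). Adk, given as a description, differed by 0.88 ± 0.16 with Compound 10 and by -0.27 ± 0.16 under vehicle.

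**Figure D3:**
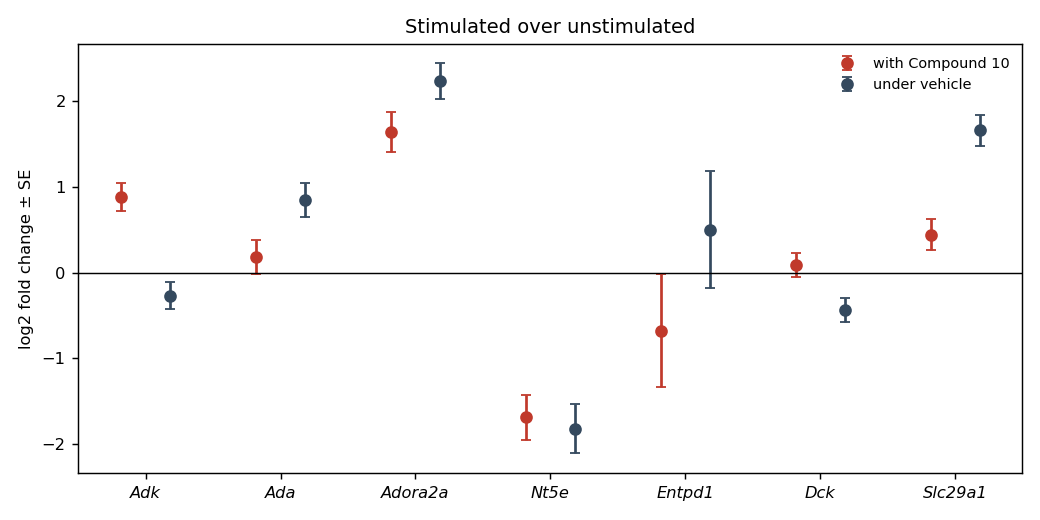
Log2 fold change of stimulated over unstimulated cells (y axis, ± SE) with Compound 10 and under vehicle. Adora2a is above 0 and Nt5e below 0 in both, while Slc29a1 lies at 0.44 with Compound 10 and 1.66 under vehicle.

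These stimulation effects depend on the scaling, since with library totals alone the median gene lay at -0.60 with Compound 10 and -0.83 under vehicle. On that scale Ada differed by -0.41 with Compound 10 and by 0.08 under vehicle (adjusted p = 0.746, edgeR quasi-likelihood), and Dck fell with Compound 10 (-0.50, 0.00993). Slc29a1 with Compound 10 took the opposite sign (-0.15). Adk, as a description, differed by 0.29 with Compound 10 and by -1.05 under vehicle on that scale. The estimates under vehicle were 0.88 for Slc29a1, 1.46 for Adora2a and -1.22 for Dck, and those of Nt5e were -2.28 with Compound 10 and -2.61 under vehicle. The rises of Adora2a and Slc29a1 under vehicle and the falls of Nt5e in either condition passed under every alternative tried, with these differences in size.

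Compared between genes on the TPM scale, Dck had the highest mean level in both Compound 10 groups, at 72.8 ± 4.14 TPM in stimulated and 103 ± 0.342 TPM in unstimulated cells (SD), where Adk stood at 36.0 ± 1.82 and 29.2 ± 0.366 TPM. Adk was highest in both vehicle groups, at 101 ± 5.16 TPM in stimulated and 209 ± 17.7 TPM in unstimulated cells. In stimulated Compound 10 cells Slc29a1 (27.1 to 30.2 TPM), Adora2a (mean 21.9), Ada (8.67), Nt5e (3.37) and Entpd1 (0.863) followed Adk, and no neighbours in that order overlapped. In stimulated vehicle cells the order after Adk was Slc29a1 (47.8 TPM), Dck (46.5), Adora2a (28.4), Ada (24.7), Nt5e (1.58) and Entpd1 (0.572), again without overlap. In unstimulated Compound 10 cells Slc29a1 (29.7 TPM) overlapped Adk, and Ada (11.3) overlapped Adora2a (10.4), with Nt5e at 15.7 and Entpd1 at 1.46 TPM. In unstimulated vehicle cells Dck (110 TPM) followed Adk, Slc29a1 (24.9) overlapped Ada (22.9), Adora2a (10.3) overlapped Nt5e (9.39) and Entpd1 stood at 1.09 TPM. The TPM of Entpd1 rests on few reads, some of them on short transcripts. In the second unstimulated vehicle library 1.62 of its 1.92 TPM came from 1.8 counts on a transcript of 245 bases.

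Adk shares its upstream region with Ap3m1, a gene of the AP-3 vesicle coat that is read in the opposite direction and whose annotated 5′ end lies 66 bases from the start of Adk. Ap3m1 stood at 88.3, 90.8 and 87.1 CPM in stimulated Compound 10 cells, against 47.1 and 48.6 CPM in stimulated vehicle cells. It rose where Adk fell (0.89 ± 0.15, 1.85-fold; adjusted p = 0.00167, edgeR quasi-likelihood), and the groups did not overlap. In resting cells it stood at 73.0 and 76.0 CPM with Compound 10, against 44.2, 54.9 and 46.4 CPM with vehicle (0.62 ± 0.14; adjusted p = 0.0264, edgeR quasi-likelihood). That call was lost with no scaling (0.0653) and in 5 of 10 fits that left out a library (adjusted p up to 0.137). The ratio of Adk to Ap3m1 in TPM was 0.590 to 0.712 with Compound 10 and 3.73 to 3.83 with vehicle in stimulated cells, and 0.437 to 0.596 with Compound 10 and 4.19 to 6.70 with vehicle in unstimulated cells.

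**Figure D4:**
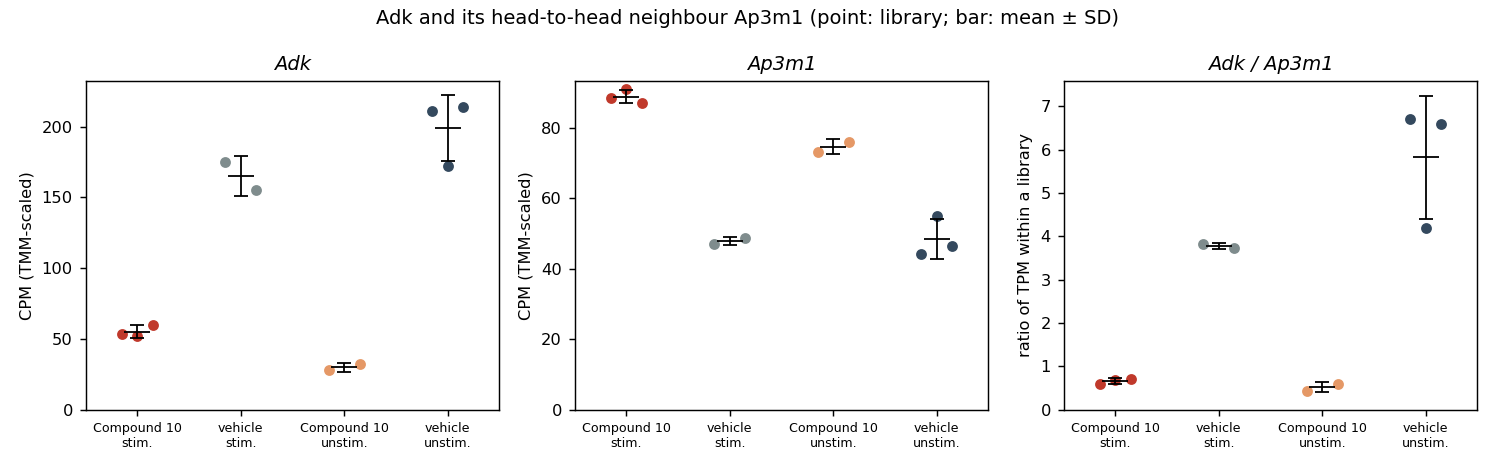
Level of Adk and Ap3m1 in CPM and their ratio within each library in TPM (y axes, starting at 0) by group, with 1 point per library and bars for the mean ± SD. Ap3m1 is higher in the Compound 10 groups, where Adk is lower, and the ratio lies below 1 in each Compound 10 library and above 3 in each vehicle library.

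Of the other annotated neighbours, Samd8, 697957 bases from the Adk start and the gene of a sphingomyelin synthase-related protein, rose to 129 ± 4.60 CPM in stimulated Compound 10 cells, against 54.6 ± 2.29 CPM in stimulated vehicle cells (1.24 ± 0.20; adjusted p = 0.00107, edgeR quasi-likelihood). In resting cells it rose by 0.85 ± 0.18 (adjusted p = 0.0197, edgeR quasi-likelihood), a call lost in 4 of 10 fits that left out a library (up to 0.109). Vcl, which encodes the adhesion protein vinculin, and Kat6b, which encodes a histone acetyltransferase, were not called in stimulated cells (0.47 and 0.45, adjusted p = 0.188 and 0.239, edgeR quasi-likelihood) or in resting cells (0.32 and -0.09, adjusted p = 0.455 and 0.875). Dupd1 did not pass the filter.

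The sequence between the annotated starts of Ap3m1 and Adk is shown because the genes moved in opposite directions across it, and 250 bases before Ada because Ada fell with Adk in stimulated cells. Both come from RefSeq (GRCm38.p6), 5′ to 3′ on the strand of Adk or Ada. Capitals mark the GC box GGGCGG, the CCAAT box and the NFAT core GGAAA on either strand, and in the Adk stretch a reversed CCAAT box shares letters with a GC box.
Adk, chr14:21052509-21052573, plus strand: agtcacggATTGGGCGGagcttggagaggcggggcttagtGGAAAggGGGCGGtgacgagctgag
Ada, chr2:163750240-163750489, minus strand: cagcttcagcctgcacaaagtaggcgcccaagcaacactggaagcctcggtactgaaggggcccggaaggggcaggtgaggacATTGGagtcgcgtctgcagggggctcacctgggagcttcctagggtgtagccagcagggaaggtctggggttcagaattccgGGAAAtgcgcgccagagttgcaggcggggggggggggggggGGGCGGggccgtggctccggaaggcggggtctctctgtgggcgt
In the 250 bases before its start Adk had 2 GC boxes, 2 CCAAT boxes and 1 NFAT core, and Ada had 1 of each. The 250 bases before Ap3m1 held 4 GC boxes, 2 CCAAT boxes and 1 NFAT core. No window of a member or of Ap3m1 held the AP-1 motif TGANTCA or the cyclic AMP response motif TGACGTCA, so their absence is not particular to Adk and Ada. Among 32851 windows of 250 bases before RefSeq starts, the GC box was in 32.7%, CCAAT in 33.8%, GGAAA in 55.6%, TGANTCA in 6.75% and TGACGTCA in 1.55%. A match describes the letters of the window and is not evidence of binding. Windows were found for 6 of the 7 members, Adora2a being the other.

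The genes around the members were counted from 8 lists with 108 genes, of which 86 were tested. For Compound 10 in stimulated cells 17 were higher and 12 lower (33.7% called, against 23.2% of all tested genes). A list of purine nucleotide interconversion genes, which also holds genes of guanine nucleotide synthesis (Impdh1, Impdh2, Gmps) and of AMP-activated protein kinase subunits (Prkaa1, Prkab1), had 2 of 15 higher and 4 lower (40.0% called; median log2 fold change -0.22). Of the 4, Gmps (-0.75; adjusted p = 0.00834, edgeR quasi-likelihood) and Prkaa1 (-0.56; 0.0400) were named after their values were seen. Adsl, the adenylosuccinate lyase gene, fell to 28.5 ± 5.25 CPM with Compound 10, against 87.1 ± 6.24 CPM with vehicle (-1.61 ± 0.18; adjusted p = 0.000147, edgeR quasi-likelihood). The nuclear adenylate kinase gene Ak6 fell (-1.30 ± 0.20; 0.000801), and Impdh2, which commits IMP to guanine nucleotides, rose to 1184 ± 129 CPM, against 673 ± 7.15 CPM with vehicle (0.82 ± 0.14; 0.00206). Purine salvage and nucleoside breakdown genes had 0 of 11 higher and 2 lower (18.2% called). These were Hprt, which salvages hypoxanthine and guanine (-0.62 ± 0.14; 0.00834), and Aprt, which salvages adenine (-0.82 ± 0.18; 0.00624).

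Ada and Adk also clear the adenosine that S-adenosylhomocysteine hydrolysis releases. Of 10 genes of the methionine cycle and its polyamine branch 0 were higher and 4 lower with Compound 10 in stimulated cells (40.0% called, against 23.2% of all tested genes). Srm, the spermidine synthase gene, fell to 77.0 ± 12.1 CPM with Compound 10, against 217 ± 2.67 CPM with vehicle (-1.50 ± 0.18; adjusted p = 0.000239, edgeR quasi-likelihood). Ahcyl2 and Ahcyl1, relatives of the hydrolase gene, fell by 1.13 and 0.71 on the log2 scale (0.000611 and 0.0298). The Ahcyl1 call was lost with upper-quartile factors, no scaling and no filter (adjusted p = 0.0741, 0.0566 and 0.0597, edgeR quasi-likelihood). Under vehicle, stimulation raised 7 of these 10 and lowered 1, where 39.0% of all tested genes were called. Ahcyl2 rose to 562 ± 73.9 CPM in stimulated vehicle cells, against 61.5 ± 6.12 CPM in unstimulated ones (3.19 ± 0.17; adjusted p = 1.46e-07, edgeR quasi-likelihood), and Mat2a, which makes S-adenosylmethionine, by 2.26 ± 0.15 (8.31e-07).

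Genes of deoxynucleoside supply, the pathway of Dck, had 4 of 13 higher and 0 lower with Compound 10 in stimulated cells (30.8% called, against 23.2% of all tested genes, 10.4% of them higher). Rrm2, a subunit of ribonucleotide reductase, rose to 118 ± 20.8 CPM with Compound 10, against 42.0 ± 4.91 CPM with vehicle (1.49 ± 0.22; adjusted p = 0.000812, edgeR quasi-likelihood). The mitochondrial kinase genes Cmpk2 and Dguok rose by 1.41 ± 0.35 and 1.00 ± 0.29 (0.0129 and 0.0268). Of 4 nucleoside transporter genes 1 was higher, the concentrative transporter gene Slc28a2 (0.85 ± 0.21; adjusted p = 0.0144, edgeR quasi-likelihood), and 0 were lower.

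A list of nucleotide hydrolysis genes of the Entpd and Enpp families had 3 of 7 higher and 1 lower (57.1% called, against 23.2% of all tested genes). Entpd5, Entpd6 and Entpd7, relatives of Entpd1 whose products are known mainly as enzymes of internal membranes and not of the cell surface, rose by 0.84, 0.81 and 0.94 on the log2 scale (adjusted p = 0.0187, 0.0279 and 0.0171, edgeR quasi-likelihood). The lower one was Enpp4, named after its value was seen (-0.55; 0.0469). Among genes of nucleotide release and P2 receptors 3 of 7 were higher and 0 lower (42.9% called, against the same 23.2%). Panx1, a channel through which ATP leaves cells, stood at 273 ± 20.6 CPM with Compound 10, against 115 ± 5.64 CPM with vehicle (1.25 ± 0.15; adjusted p = 0.000190, edgeR quasi-likelihood). P2ry10, a receptor gene grouped with the P2 receptors by name, stood at 187 ± 22.1 CPM, against 60.9 ± 10.7 CPM (1.61 ± 0.17; 0.000131). The ATP-gated channel gene P2rx7 stood at 2.51 ± 0.760 CPM, against 0.697 ± 0.122 CPM (1.86 ± 0.51; 0.0209). With length-scaled sums Entpd7 and P2rx7 were not called (0.83 and 1.39, adjusted p = 0.0966 and 0.0819, edgeR quasi-likelihood).

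Adenosine receptor and cyclic AMP signalling genes had 4 of 19 higher and 1 lower with Compound 10 in stimulated cells (26.3% called, against 23.2% of all tested genes). The cyclic AMP phosphodiesterase genes Pde3b and Pde4d rose by 1.97 ± 0.26 and 0.96 ± 0.20 (adjusted p = 0.000382 and 0.00518, edgeR quasi-likelihood). Creb1, the gene of a factor activated by cyclic AMP, rose by 1.10 ± 0.15 (0.000444). The gene called lower was Pde4b, also a cyclic AMP phosphodiesterase gene, named after its value was seen. It fell to 704 ± 41.5 CPM with Compound 10, against 1058 ± 20.1 CPM with vehicle (-0.59 ± 0.15; adjusted p = 0.0159, edgeR quasi-likelihood). Genes named after their values were seen are not among the 23 counted next. Of the 23 genes named here from the lists and neighbours with a call in this comparison, 12 were called in each of the 10 fits that left out a library. The others were Ahcyl1, Aprt, Hprt, Cmpk2, Dguok, Entpd5, Entpd6, Entpd7, P2rx7, Pde4d and Slc28a2, whose highest adjusted p in those fits lay between 0.0615 and 0.219.

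The same lists were counted in the other comparisons. For Compound 10 in resting cells 5 were higher and 1 lower (6.98% called, against 8.43% of all tested genes, of which 4.65% were higher and 3.78% lower). These were the adenylosuccinate synthase gene Adss (0.68 ± 0.13), the xanthine dehydrogenase gene Xdh (1.44 ± 0.30), Rrm2 (0.91 ± 0.21), P2ry10 (0.71 ± 0.16), Ak4 and Mat2b (-0.61 ± 0.15), with adjusted p between 0.00909 and 0.0325 by edgeR's quasi-likelihood test, and each was lost in at least 1 of 10 fits that left out a library. Ak4 had 65 counts with Compound 10 and 2 with vehicle, a ratio of 43.7 with a 95% counting interval of 11.6 to 368, which covers counting error only. For stimulation with Compound 10, 17 were higher and 6 lower (26.7% called, against 26.5%), and under vehicle 27 were higher and 16 lower (50.0% called, against 39.0%). For the interaction of Compound 10 with stimulation 3 were higher and 6 lower (10.5% called, against 6.63% of all tested genes, 2.55% higher and 4.08% lower). Pnp, which splits the inosine that Ada makes, rose by 1.41 ± 0.15 with Compound 10 and by 1.55 ± 0.14 under vehicle (adjusted p = 7.71e-05 and 9.92e-06, edgeR quasi-likelihood), and Pde4b by 1.46 ± 0.16 and 2.10 ± 0.15 (8.79e-05 and 1.48e-06).

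Of 7445 genes compared over the 10 libraries, the 5 whose log2 level followed that of Adk most closely were Gbe1 (Pearson r = 0.974), Ugdh (0.970), Slfn2 (0.966), Wdr59 (0.954) and Pcbp3 (0.953). These are descriptions over libraries that share groups and scaling. Gbe1, the glycogen branching enzyme gene, averaged 28.3 ± 3.15 CPM in stimulated Compound 10 cells, 43.9 ± 2.73 CPM in stimulated vehicle cells, 18.3 ± 2.62 CPM in unstimulated Compound 10 cells and 51.1 ± 7.97 CPM in unstimulated vehicle cells. Ugdh, the gene of UDP-glucose dehydrogenase, averaged 18.3 ± 3.47, 47.5 ± 0.419, 15.5 ± 1.12 and 45.0 ± 2.89 CPM in the same groups. By Spearman's rho 3 of the 5 were again among the 5 highest. Among the members, the correlation with Adk was 0.825 for Ada, -0.451 for Nt5e, -0.421 for Dck, -0.393 for Entpd1, -0.032 for Slc29a1 and 0.004 for Adora2a.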

How the data were processed

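RNA was measured in 10 libraries of 4 groups, taken from the treatment and stimulation in the labels. The tools in the submitters' processing notes are cutadapt and kallisto and the build is mm10, with versions not given in the sources used here. Estimated counts of kallisto for each transcript were deposited by the authors, per the file headers. Beside them the authors deposited TPM values, lengths and effective lengths, per the file headers. TPM was summed per gene and not tested. Identifiers without version were matched to GENCODE release M21, which placed 108214 of 109617 transcripts, and the 1403 others held 0.507% to 0.671% of a library's counts.

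These counts were added up over the transcripts of a gene, then rounded. One fit of all libraries with 1 coefficient per group was made with edgeR 4.0.16 (quasi-likelihood test, TMM factors of 0.731 to 0.850 for stimulated libraries and 1.20 to 1.34 for unstimulated ones, filterByExpr by group) and limma 3.58.1 in R 4.3.3. It tested 14417 of 45321 genes, with Benjamini-Hochberg adjustment over all of them. A gene called higher or lower, or said to have risen or fallen, had an adjusted p under 0.05. Levels are CPM with TMM factors unless TPM is named. The SE comes from the estimate and its F statistic. Alternatives were other scalings, no filter, DESeq2 1.42.0, blocks, length-scaled sums and each library left out in turn.

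The members and the lists were chosen with earlier results of these data known. Genes named besides the members were, per list and comparison, up to 3 called genes with the smallest adjusted p, the annotated neighbours of Adk, and the 5 tested genes of average log2 CPM of at least 3 whose log2 CPM (prior count 2) correlated most with Adk. The last left out the members, ribosomal protein genes, mitochondrial genes, unnamed gene models and antigen receptor segments. The motifs searched were chosen after the values were seen.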

Additional observations from a re-analysis of the deposited data

Results flagged for a closer look

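In CPM, Slc29a1 was lower in all Compound 10 than in all vehicle libraries of stimulated cells and higher in those of unstimulated cells. In stimulated cells 54.7% of all tested genes had no overlap between the groups, and that share was not computed for resting cells. The estimates of Slc29a1 thus had opposite signs in the 2 states. The resting estimate (0.43 ± 0.18) is a description and not a call. In TPM the resting groups overlapped, at 25.6 to 33.9 with Compound 10 and 21.7 to 27.8 with vehicle. The log2 effect in stimulated minus that in unstimulated cells was -1.22, and this difference was not tested because the resting comparison chose the genes.

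The effect of Compound 10 differed between stimulated and unstimulated cells by edgeR's interaction test for 8 other genes of the lists, in a comparison in which 6.63% of all tested genes were called. The log2 difference was 1.48 for Entpd5, 0.96 for Panx1 and 0.90 for P2ry10 (adjusted p = 0.0189, 0.0189 and 0.0446). It was -1.50 for Ahcyl2, -1.44 for Srm, -1.03 for Aprt, -0.97 for Adsl and -0.83 for Adss (adjusted p = 0.00470, 0.00970, 0.0333, 0.0432 and 0.0202). Of these, Ahcyl2 was called in each of 10 fits that left out a library (adjusted p up to 0.0462). The others were lost in 2 fits (Srm), 3 (Panx1, Adss), 4 (Entpd5), 7 (Aprt) or 8 (P2ry10, Adsl), with adjusted p up to 0.216. Under the other settings Adsl was lost with upper-quartile factors (0.0558), no scaling (0.126) and length-scaled sums (0.0578), Adss with no scaling (0.0682) and no filter (0.0591), Aprt with no scaling (0.0662) and P2ry10 with length-scaled sums (0.0724). Ak4 was also called, but not with length-scaled sums (0.627). Its call was also lost in 7 of 10 fits that left out a library, with estimates of -6.77 to -3.98. It rests on the 65 and 2 counts in resting Compound 10 and vehicle cells.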

How the results depend on the processing

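Fold changes and counts of calls were recomputed under 8 other settings and with each of 10 libraries left out. Levels, transcript shares and the genes most like Adk had 1 alternative each (library totals alone, shares by TPM, Spearman's rho). The falls of Adk and Ada in stimulated Compound 10 cells passed under all 18 alternatives, at -1.65 to -1.45 and -1.65 to -1.43 on the log2 scale (adjusted p up to 0.00259 and 0.00533, edgeR or DESeq2). The number of adenosine genes called was 5 in stimulated cells (2 to 6 with a library left out, 6 with the replicate number as a block).

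Over all genes, the count called with a library left out was 1589 to 3919 for Compound 10 in stimulated cells (3350 with all), 3568 to 5771 for stimulation under vehicle (5617), 2347 to 4370 for stimulation with Compound 10 (3816), 325 to 1335 for Compound 10 in resting cells (1215) and 191 to 1332 for the interaction (956). The count for stimulation with Compound 10 was 6029 with no scaling. In resting cells it was 2403 with index runs as a block, 679 with length-scaled sums and 1888 with DESeq2. For the interaction it was 1448 with no filter, 1504 with the replicate block, 2167 with index runs as a block, 492 with length-scaled sums and 1671 with DESeq2. The cause of these shifts was not tested.

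Of the calls for Compound 10 in stimulated cells 44.8% were higher, against 57.8% with upper-quartile factors (median gene 0.18) and 54.6% with no scaling (0.15). For stimulation the share was 48.3% with Compound 10 and 50.1% under vehicle, against 13.4% and 15.4% with no scaling. In resting cells it was 55.1%, against 42.5% with no scaling. For the interaction it was 38.5%, against 50.9% with upper-quartile factors and 62.7% with no scaling. Samd8 changed sign for stimulation under vehicle with no scaling (-0.17). Of the genes most like Adk, 3 of 5 were shared between Pearson and Spearman.

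Libraries with the same replicate number deviated together in 2 of 13 pairs (r over 0.1; range -0.28 to 0.33). Those with different numbers did so in 2 of 24 pairs (-0.46 to 0.46). Of the pairs from the same index run 3 of 12 did (-0.05 to 0.46), and of those from different runs 1 of 25 (-0.46 to 0.33). In a group of 2 libraries the deviations are mirror images, so these counts cannot decide whether libraries were paired. The replicate numbers were not taken to pair them. With the replicate block the counts were 3970, 5964, 4469 and 1631 for Compound 10 in stimulated cells, stimulation under vehicle, stimulation with Compound 10 and Compound 10 in resting cells. With it Adora2a passed in stimulated cells (-0.62, adjusted p = 0.0153, edgeR quasi-likelihood). Entpd1 was limited by depth, and 2 libraries in a group limit every comparison here.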
